A study of Mus musculus with 2 samples.

Results

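The C-type natriuretic peptide pathway was followed through 6 genes in cells sorted from mouse embryos: the ligand gene Nppc, the receptor genes Npr1, Npr2 and Npr3, and the cGMP-dependent protein kinase genes Prkg1 and Prkg2. The members were named from their known roles in growth plate control, and every probe set annotated with 1 of these symbols alone was taken, which gave 11 probe sets for the 6 of 18193 genes that have such a probe set on the array. The embryos were of the Col2a1-Venus-Tg line on a C57Bl/6 background, in which Venus, a variant of green fluorescent protein, marks cells that use Col2a1, the gene of the main cartilage collagen. Fluorescence-activated cell sorting gave Venus-positive cells (labelled chondrocytes) and Venus-negative cells. The total RNA of a fraction went onto 1 array of the type Affymetrix Mouse Genome 430 2.0. Both groups carry the transgene and were told apart by its fluorescence. The sources used here give neither the embryonic stage, nor the number of embryos, nor the sorting gates. Each group has 1 array, so no difference below has a replicate check, no test across samples was possible and no p-value is given.

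C-type natriuretic peptide is a small secreted hormone that growth plate chondrocytes make for local use. It binds natriuretic peptide receptor B, the product of Npr2, a cell-surface receptor whose inner part is a guanylyl cyclase. The cGMP that it forms switches on cGMP-dependent protein kinase II, the product of Prkg2, which promotes chondrocyte maturation and long bone growth and opposes growth-restraining signals from the receptor Fgfr3. Natriuretic peptide receptor C, from Npr3, lacks the cyclase and removes the peptides from the tissue, and loss of Npr2 or Prkg2 shortens the bones of mice whereas loss of Npr3 lengthens them.

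The receptor and kinase that carry the C-type natriuretic peptide signal in cartilage, Npr2 and Prkg2, gave more signal in Venus-positive cells, whereas the clearance receptor gene Npr3 and the ligand gene Nppc gave less. Prkg2 was 4.43-fold higher and Npr2 1.93-fold higher in Venus-positive cells. Npr3 was 2.99-fold lower, and Nppc was at least 2.03-fold lower. Prkg1, the kinase gene of smooth muscle, was 1.14-fold higher, and Npr1, the receptor gene for the heart's natriuretic peptides, was not measurable in either fraction.

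The 2 arrays differed in brightness. A gene counted as measured when a probe set reached a floor of 22.5, the median of all non-control signals, on at least 1 array, and lower signals were raised to the floor, so that a fold from below it is a bound. Over 11789 measured genes the median log2 ratio, Venus-positive over Venus-negative, was -0.33, and a relative log2 ratio has this median subtracted. Probe sets of the same gene share both RNA samples and hold no error between samples. Their log2 ratios had a median standard deviation of 0.21 over 5445 genes with several measured probe sets. The label of the positive fraction was checked on 6 chondrocyte markers besides Col2a1, and all 6 were higher by 2-fold or more, Acan (aggrecan) at 3461 in Venus-positive cells, against 62.6 in Venus-negative cells. The folds were unequal. Col9a1 gave 10902 in Venus-positive cells, against 1762 in Venus-negative cells, and Sox9 1601 against 338. The Venus-negative fraction thus kept signal of some cartilage markers. Col2a1 itself (8443 against 606) belongs to the sort and is no finding.

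Of the 6 members 5 were measured. In Venus-positive cells 1 of these was higher by 2-fold or more, where 2.79% of all measured genes were, and 2 were lower by as much, where 11.6% were. Relative to the median gene the split turned to 2 higher (Npr2 and Prkg2) and 1 lower (Npr3), against a background of 5.06% higher and 6.45% lower. The median log2 ratio of the 5 members was 0.19, against -0.33 over all measured genes. With so few members the counts describe these genes and call nothing particular to them. By probe set, 9 of 11 were measured. Of these, the 3 of Prkg2 were past 2-fold on the higher side, as were 2.44% of the 21102 measured probe sets with 1 symbol. Another 3, both measured ones of Npr3 and that of Nppc, were past it on the lower side, as were 10.2%.

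**Figure D1:**
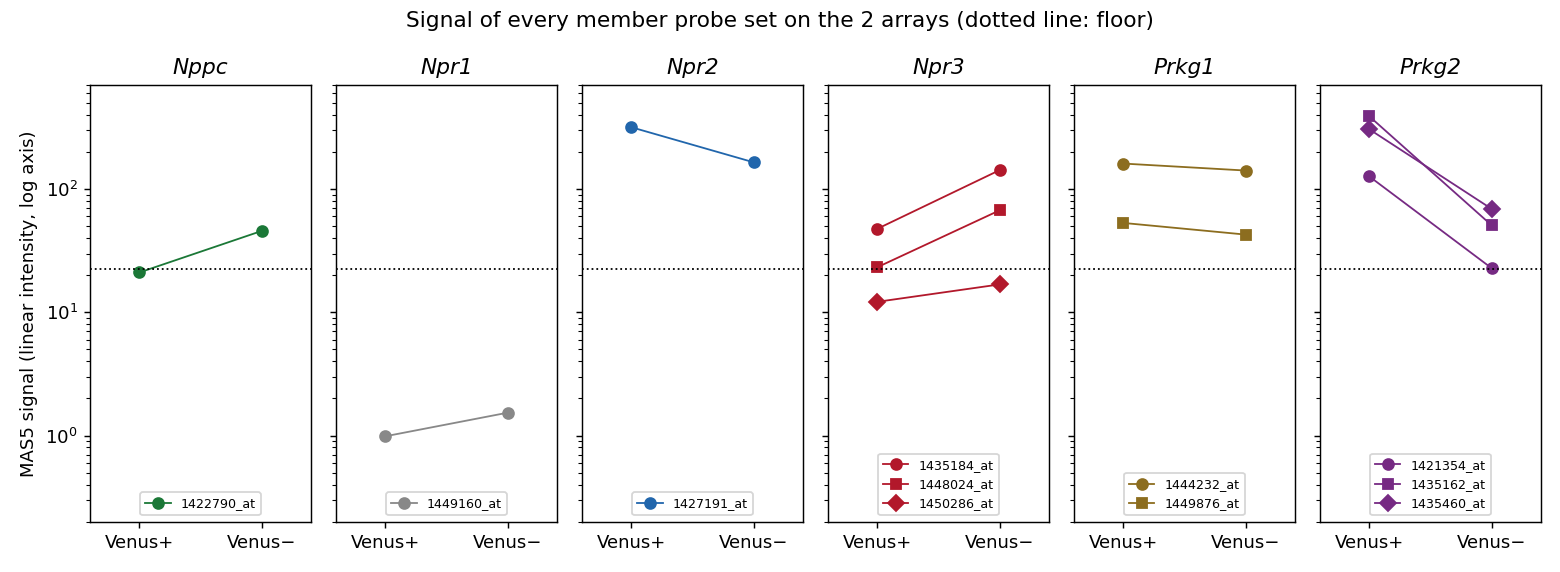
Linear MAS5 signal (log axis) of all 11 member probe sets in Venus-positive (left) and Venus-negative cells (right), 1 array each, with the floor of 22.5 as a dotted line. All 3 probe sets of Prkg2 slope down to Venus-negative cells and both measured ones of Npr3 slope up. The third of Npr3 lies below the floor on both arrays, and Npr1 lies far below it.

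The ligand gene Nppc encodes the precursor of C-type natriuretic peptide. Its only probe set, 1422790_at, had a signal of 21.0 in Venus-positive cells, just below the floor, against 45.7 in Venus-negative cells. The gene was thus dim on both arrays, brighter than 51.6% of all non-control probe sets in Venus-positive cells, against 59.1% in Venus-negative cells. With the floor applied its log2 ratio was -1.02, at least 2.03-fold lower. Without the floor the ratio of both signals was 2.17-fold. Relative to the median gene it was -0.69, short of 2-fold, so the place of Nppc among the lower genes depends on the scale.

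Npr2, which makes the cyclase-bearing receptor for C-type natriuretic peptide, was represented by 1 probe set, 1427191_at. Its signal was 318 in Venus-positive cells, against 165 in Venus-negative cells, well above the floor on both arrays. The log2 ratio of 0.95 stood just short of the 2-fold size on the deposited scale, and the relative log2 ratio of 1.28, or 2.42-fold, was past it. Among all measured genes 3.05% had a higher ratio than Npr2.

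Npr3, the clearance receptor gene, had 3 probe sets. The probe set 1435184_at gave 47.6 in Venus-positive cells, against 143 in Venus-negative cells. The probe set 1448024_at gave 23.2 in Venus-positive cells, against 67.2 in Venus-negative cells. These probe sets were 2.99-fold and 2.90-fold lower, with log2 ratios only 0.05 apart. The third, 1450286_at, was below the floor on both arrays (12.2 and 16.8) and counts as not measured. Its log2 ratio without the floor, -0.47, lay near the -0.33 of the median gene. Relative to the median gene Npr3 was 2.38-fold lower, and 4.25% of measured genes had a lower ratio. Under a stricter floor of 114, the 75th percentile of signals, its value in Venus-positive cells lay below the floor and only a bound of 1.25-fold was left.

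Npr1 encodes natriuretic peptide receptor A, which also bears a cyclase and answers mainly to atrial and B-type natriuretic peptide. Its probe set 1449160_at had a signal of 0.986 in Venus-positive cells, against 1.53 in Venus-negative cells. Only 10.3% of probe sets were dimmer in Venus-positive cells, against 12.5% in Venus-negative cells, and no fold is given. This shows that Npr1 was not detectable with this probe set, not that it was absent.

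Prkg2, the gene of the membrane-bound kinase of the growth plate, had the widest difference of the 5 measured members. The probe set 1435460_at, which represented the gene because its mean log2 signal was the highest, gave 306 in Venus-positive cells, against 69.1 in Venus-negative cells, 4.43-fold higher. The probe set 1435162_at gave 390 in Venus-positive cells, against 50.9 in Venus-negative cells, 7.66-fold higher. The probe set 1421354_at gave 127 in Venus-positive cells, against 22.8 in Venus-negative cells, 5.55-fold higher. The representative probe set thus had the smallest fold. The direction was shared by all 3 and the size was not: their log2 ratios ran from 2.15 to 2.94, with a standard deviation of 0.40 between them. On the representative probe set 93 of 11789 measured genes had a higher ratio than Prkg2.

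Prkg1, the gene of the soluble kinase best known from smooth muscle and platelets, was nearly level on the deposited scale. The probe set 1444232_at gave 161 in Venus-positive cells, against 141 in Venus-negative cells. The probe set 1449876_at gave 53.1 in Venus-positive cells, against 42.7 in Venus-negative cells. The log2 ratios of 0.19 and 0.31 lay on the same side of 0, and neither reached 2-fold on the deposited scale. On the relative scale they were 0.52 and 0.65. By its representative probe set 1444232_at, 14.0% of measured genes had a higher ratio than Prkg1.

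**Figure D2:**
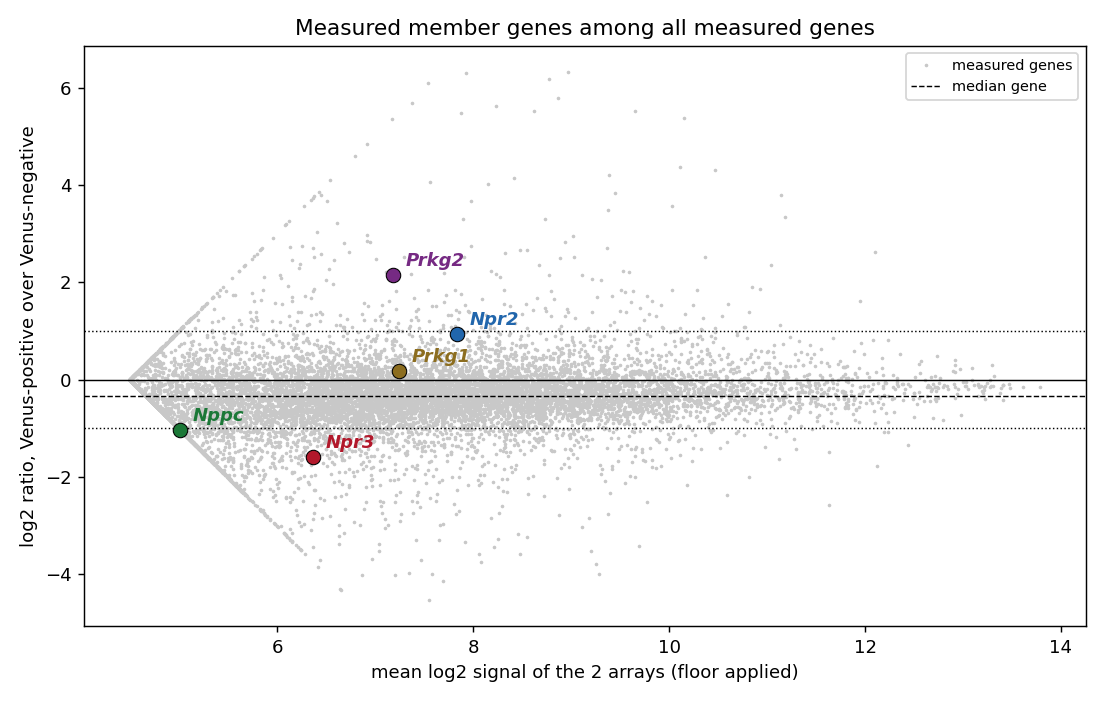
Log2 ratio (Venus-positive over Venus-negative) against mean log2 signal for 11789 measured genes (grey) and the 5 measured members, each by its representative probe set. Dotted lines mark 2-fold, and the dashed line marks the median gene at -0.33. Prkg2 lies at 2.15 and Npr2 at 0.95, Prkg1 at 0.19, and Nppc, on the lower edge set by the floor, and Npr3 lie at -1.02 and -1.58.

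A common factor on the signals of an array leaves differences between members' log2 ratios unchanged, except where a value is set by the floor, as for Nppc. Quantile normalization is not such a factor and can change them. The widest gap was that of Prkg2 over Npr3, at 3.73. The log2 ratio of the signalling receptor gene Npr2 exceeded that of the clearance receptor gene Npr3 by 2.53, a 5.77-fold shift between the fractions. The kinase pair was also unequal, since Prkg2 exceeded Prkg1 by 1.96, or 3.89-fold. Prkg2 exceeded Npr2 by 1.20, and Npr2 exceeded Prkg1 by 0.76. The standard deviation between probe sets of the same gene, pooled over genes, was 0.34. That spread holds no error between samples, so it does not measure the error of these gaps. In order of log2 ratio the members ran Prkg2, Npr2, Prkg1, Nppc and Npr3. Nppc and Npr3 differed by 0.56, but the value of Nppc is a bound and their order is not settled.

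Promoter sequences are shown for the receptor gene that was higher and for the receptor and ligand genes that were lower, with short motifs marked. They are RefSeq windows of GRCm38.p6, from 250 bases before to 50 bases after an annotated start, printed along the gene's own strand. Capitals mark the letters ACAAAG, the core of SOX factor motifs, the letters TATAAA of a TATA motif and the letters GGGCGG of a GC box. Each was searched on both strands, so that a match on the other strand shows as the reverse complement, and no marked motifs overlap. Npr2 lies at chr4:43631685-43631984 on the plus strand, Npr3 at chr15:11907322-11907621 and Nppc at chr1:86670524-86670823, both on the minus strand.
Npr2: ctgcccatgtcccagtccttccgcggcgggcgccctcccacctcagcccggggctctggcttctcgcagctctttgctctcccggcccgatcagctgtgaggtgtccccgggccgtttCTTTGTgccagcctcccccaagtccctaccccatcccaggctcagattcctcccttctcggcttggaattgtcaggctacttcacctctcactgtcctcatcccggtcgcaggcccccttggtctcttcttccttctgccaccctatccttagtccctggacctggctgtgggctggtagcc
Npr3: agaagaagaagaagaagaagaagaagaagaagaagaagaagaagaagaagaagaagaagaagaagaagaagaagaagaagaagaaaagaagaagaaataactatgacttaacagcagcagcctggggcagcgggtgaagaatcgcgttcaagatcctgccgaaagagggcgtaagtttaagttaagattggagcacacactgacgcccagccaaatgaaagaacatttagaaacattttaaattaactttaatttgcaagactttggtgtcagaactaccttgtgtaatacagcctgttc
Nppc: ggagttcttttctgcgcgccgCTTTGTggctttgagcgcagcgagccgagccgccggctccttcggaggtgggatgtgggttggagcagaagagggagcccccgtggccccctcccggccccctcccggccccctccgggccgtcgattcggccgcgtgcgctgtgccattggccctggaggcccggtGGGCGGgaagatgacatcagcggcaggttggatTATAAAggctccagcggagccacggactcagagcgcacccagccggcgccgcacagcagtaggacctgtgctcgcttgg

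The Npr2 window held 1 SOX core motif, 132 bases before the start, and the Nppc window 1, 229 bases before it. The Nppc window also had a TATA motif 29 bases and a GC box 62 bases before the start, and the Npr3 window held none of these letters. Over all 32851 promoter windows 18.7% held the SOX core on either strand, 13.6% the TATA motif and 35.7% the GC box. Base composition differed widely, with 64.0% G and C in the Npr2, 39.0% in the Npr3 and 69.3% in the Nppc window, against a median of 52.7%. Prkg2 had no promoter window in the set used, and the windows of Npr1 and Prkg1, which held 0 SOX cores, are not shown. A SOX core was thus found both in a gene that was higher and in one that was lower, and a match of letters shows no binding.

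In 4 lists of other cGMP signalling genes 27 genes were measured, of which 4 were lower by 2-fold or more in Venus-positive cells (14.8%, against 11.6% of all measured genes) and 1 was higher (3.70%, against 2.79%). These shares lie near the background and are no result about the pathway, and the genes are described singly below. Of 7 further genes for ligands and for the processing and breakdown of natriuretic peptides, 4 were measured and none reached 2-fold, with a median log2 ratio of 0.04. Furin, a protease that cleaves the precursor of C-type natriuretic peptide, gave 193 in Venus-positive cells, against 147 in Venus-negative cells. Mme, the peptide-degrading enzyme neprilysin, gave 1040 in Venus-positive cells, against 987 in Venus-negative cells, and Ide, the insulin-degrading enzyme gene, 211 against 209. Corin, which cleaves the atrial peptide precursor, gave 58.4 in Venus-positive cells, against 107 in Venus-negative cells. The peptide genes Nppa (8.88 against 14.0) and Nppb (1.15 against 21.7) were below the floor on both arrays, and Ostn, which encodes a ligand of the clearance receptor, was not analysed here.

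The other route to cGMP, through nitric oxide and soluble guanylyl cyclase, was dim. Of 10 listed cyclase and nitric oxide synthase genes 5 were measured, all of this route. Of the route's listed genes only Nos2 was not measured (1.05 in Venus-positive cells, against 1.23 in Venus-negative cells). The list also holds the membrane cyclase genes Gucy2c, Gucy2e, Gucy2f and Gucy2g, which are not of this route. None of them was measured, and Gucy2f had no probe set of its own. On the lower side 2 of the 5 measured genes passed 2-fold, where 11.6% of all measured genes did. Relative to the median gene none did so, where 6.45% of all measured genes did. Both genes past 2-fold encode alpha subunits of soluble guanylyl cyclase. Gucy1a1 gave 7.54 in Venus-positive cells, against 54.4 in Venus-negative cells, at least 2.42-fold lower, and Gucy1a2 gave 31.1 against 69.9, 2.25-fold lower. The beta subunit gene Gucy1b1 (9.28 against 40.9) was at least 1.82-fold lower, though another probe set gave a log2 ratio of -0.25. The endothelial nitric oxide synthase gene Nos3 (18.1 against 33.9) had a log2 ratio of -0.59. The fifth measured gene, the neuronal nitric oxide synthase gene Nos1, lay on the other side (30.9 against 18.0, log2 ratio 0.46). The membrane receptor gene Npr2 was the only cyclase gene with a higher signal among the members and this list, where 4 cyclase genes were measured, Npr2 included.

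Among 15 genes for cGMP breakdown and export 10 were measured, with a median log2 ratio of -0.58. On the lower side 2 of these reached 2-fold, where 11.6% of all measured genes did. Relative to the median gene 1 of them did, against 6.45%. Pde5a, the cGMP-specific phosphodiesterase gene, gave 18.9 in Venus-positive cells, against 136 in Venus-negative cells, at least 6.03-fold lower, and the smallest difference of its 3 measured probe sets was a log2 ratio of -1.53. Pde10a, a phosphodiesterase gene best known from the brain, was at least 2.14-fold lower (19.2 against 48.2), though another probe set gave a log2 ratio of 0.17. The exporter gene Abcc4 (20.7 against 42.0) was at least 1.87-fold and Pde1b (21.3 against 39.7) at least 1.76-fold lower. Pde5a lay farther below the median gene than any other measured gene of the 5 pathway lists.

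Of 13 genes for kinase targets, partners and cGMP-gated channels 8 were measured. The potassium channel gene Kcnma1, whose channel responds to cGMP-dependent kinase, was 2.04-fold higher (57.6 against 28.3) on 1 of its 5 probe sets, the others being below the floor. The remaining 7 were within 2-fold. Of all measured genes 2.79% were higher by 2-fold or more and 11.6% lower. The list's median log2 ratio of -0.38 was close to that of all measured genes. Gsk3b, a kinase that is phosphorylated by the Prkg2 product in chondrocytes, gave 415 in Venus-positive cells, against 716 in Venus-negative cells. Rgs2 (428 against 628) and the myosin phosphatase subunit gene Ppp1r12a (574 against 776) were also within 2-fold.

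In the list of Fgfr3 with the genes leading to the kinase ERK and related kinases, a route that the natriuretic peptide signal opposes, 9 of 16 genes had a probe set of their own here and all 9 were measured. Fgfr3 was the 1 gene at least 2-fold higher, where 2.79% of all measured genes were. It gave 2214 in Venus-positive cells, against 198 in Venus-negative cells, although its probe sets disagreed in size, with log2 ratios of 3.48 and 1.52. The other 8, which encode adaptors, RAS and kinases, had log2 ratios from -0.88 to -0.27, on both sides of the median gene, by their representative probe sets. The 4 measured probe sets of Mapk14 ran from -0.27 to 0.73 and shared no direction. Nras was 1.85-fold lower (395 against 730), Map2k1 1.70-fold (192 against 326) and Sos1 1.68-fold lower (195 against 328). Fgfr3 and Npr2, the receptor genes of the opposing signals, thus both had more signal in Venus-positive cells. Sox9, the cartilage transcription factor whose entry into the nucleus the Prkg2 product limits in rats, was at 1601 in Venus-positive cells, against 338 in Venus-negative cells.

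**Figure D3:**
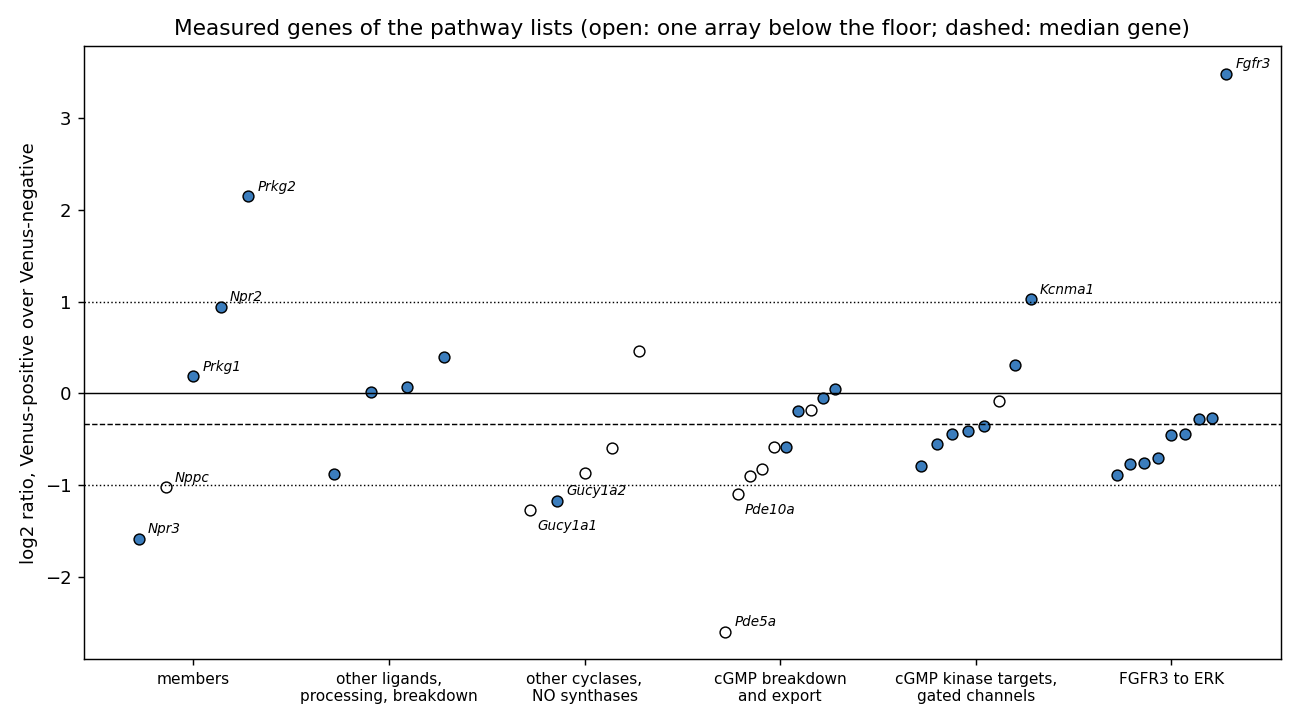
Log2 ratio (Venus-positive over Venus-negative) for the 5 measured members (left column) and the measured genes of 5 pathway lists, each point a gene by its representative probe set. Open points have a signal below the floor on 1 array, dotted lines mark 2-fold and the dashed line the median gene. Outside the members, Fgfr3 and Kcnma1 lie above the upper 2-fold line and Gucy1a1, Gucy1a2, Pde5a and Pde10a below the lower one.

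Markers of other cell types were mostly lower, by 2-fold or more in the counts that follow, in Venus-positive cells. They stood beside Npr3, Nppc, Pde5a and the alpha subunit genes of soluble guanylyl cyclase. Of all measured genes 11.6% were lower by as much, and 6.45% relative to the median gene. Of 6 smooth muscle and pericyte markers, all measured, 4 were at least 2-fold lower, and their summed signal was 689 in Venus-positive cells, against 3663 in Venus-negative cells. All 5 endothelial markers were lower, with sums of 102 and 549. All 5 fibroblast and perichondrium markers were measured, 4 were at least 2-fold lower, and the sums were 7930 and 18579. Of 5 neuronal markers 4 were lower (165 and 569), 2 of them relative to the median gene, and of 3 measured cardiac markers 2 (45.9 and 404). All 4 leukocyte markers (103 and 1167), all 3 measured skeletal muscle markers (109 and 922) and all 3 epithelial markers (108 and 673) were lower. Of 4 erythroid markers 3 were measured and 2 were lower, Alas2 (38.8 against 444) and Slc4a1 (49.2 against 867). The third, the globin gene Hbb-y, was at 11912 against 13190 and carried nearly all of the summed signal. Of 4 glial and neural crest markers 2 were measured, with sums of 43.5 and 45.0, and they went opposite ways. Sox10 was at 41.0 against 16.7, a log2 ratio of 0.86 with the floor applied that was past 2-fold relative to the median gene (1.20), and Foxd3 was at 2.52 against 28.3. No marker was at 0 on either array, but neither was Npr1, far below the floor, so this shows no cells of any type. In Venus-positive cells 2 of 5 endothelial and 2 of 6 smooth muscle and pericyte markers were below the floor. So were 2 of 3 measured cardiac and 2 of 4 leukocyte markers. Among these were Pecam1 (1.70), Myh11 (5.83), Myh6 (1.37) and Ptprc (10.2), while the other measured markers of these lists were above it. In such mixed fractions fewer cells of a type and less RNA per cell cannot be told apart, and the part of these cells in the lower signals was not tested.

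The measured genes most like each member were sought by the distance between log2 signals on the 2 arrays, with the floor applied, which is a match of 2 signals and no more. Only 4 of 11784 other measured genes lay within 0.25 of Prkg2 on both arrays, the nearest being Fxyd3 (311 in Venus-positive cells, against 68.2 in Venus-negative cells) and Plcd1 (297 and 64.2). There were 25 such genes for Npr2, led by Acot1 (310 and 164) and Mdfi (303 and 170.2), and 44 for Npr3, led by Cdh6 (47.7 and 138) and Hdac7 (47.7 and 148). Prkg1 had 221, led by Pdp1 (160.5 and 142) and Eif2b1 (163 and 140.2). Nppc had 270, led by Gng8 and Fancm, which like Nppc were below the floor in Venus-positive cells (21.4 and 15.9) and at 45.7 in Venus-negative cells. All signals below the floor count as equal, so the match to Nppc rests in effect on the Venus-negative signal alone. Its count of 270 is therefore not comparable with those of the other members.

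**Figure D4:**
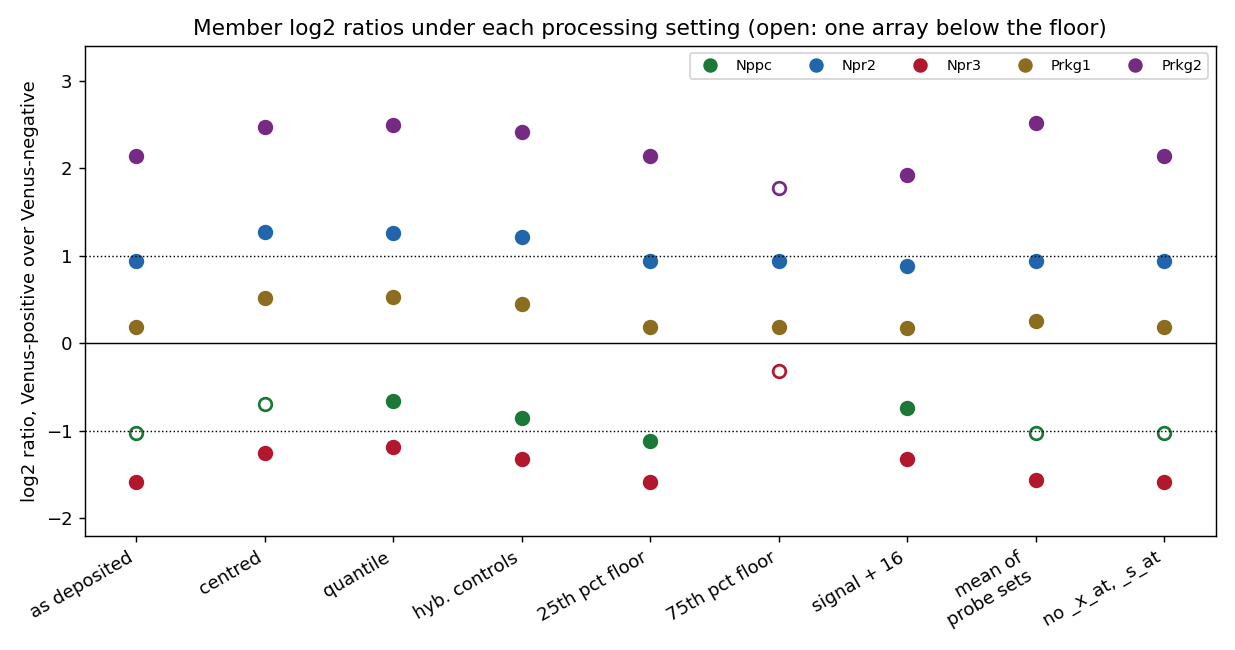
Log2 ratio (Venus-positive over Venus-negative) of the 5 measured members under the deposited scale and 8 other settings (columns). Open points have a signal below the floor on 1 array, and dotted lines mark 2-fold. Prkg2, Npr2 and Prkg1 lie above 0 and Npr3 and Nppc below 0 in each setting where they are measured, and Npr2, Npr3 and Nppc cross the 2-fold line between settings, Npr3 with the floor at the 75th percentile alone.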

How the data were processed

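Gene expression was measured on 1 array for each sorted fraction, and samples were grouped by their labelled cell type. Per the labels' protocols, 100 ng of total RNA went into biotin labelling. The values deposited by the authors are linear intensities, made with MAS5 per the submitters' processing notes. The sources used here give no version, scaling target or detection calls. The number of arrays limits the precision.

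Of 45101 probe sets 64 controls were set aside. In the platform annotation 34945 probe sets had 1 gene symbol, 932 several and 9160 none, and only the first kind was used. Signals under the floor of 22.5 were raised to it before log2, and a gene was represented by its brightest measured probe set (mean log2 signal). Differences are described by a size of 2-fold with no test. The 8 alternatives concern scale, floor, representative probe set and cross-hybridising probe sets. Shifts of a log2 ratio were judged against 0.34, the standard deviation between probe sets of the same gene pooled over genes, and counts against a factor of 1.5. The code was tested on simulated data, with changes well past 2-fold set in genes bright in Venus-negative cells. Changes near 2-fold and changes in dim genes were not simulated.

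Members, lists and sizes were chosen with earlier results of these data known. Named were all members, the 4 measured genes of each pathway list with the largest log2 ratio in either direction, each gene of the list of 7, Col2a1, Acan, Sox9 and Fgfr3, and the nearest genes by signal. The markers Pecam1, Myh11, Myh6, Ptprc, Sox10, Foxd3, Alas2, Slc4a1, Hbb-y and Col9a1 were named after their values were seen. So were the genes Nos1, Nos2, Mapk14, Gucy2c, Gucy2e and Gucy2g. Gucy2f, which has no value here, was named with them. Python 3.11.15, numpy 2.4.6 and pandas 2.3.3 were used.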

Additional observations from a re-analysis of the deposited data

How the results depend on the processing

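No measured member changed direction under any of the 8 alternatives, and Prkg1 and Npr2 moved by less than the spread between probe sets under each. Several of these outcomes were fixed in advance. No member has a cross-hybridising probe set to leave out, and Npr2 and Nppc have 1 probe set each, with nothing to average. A floor or an added constant cannot reverse the ratio of a probe set. The floor at the 25th percentile cannot move a member above the main floor on both arrays. Centring subtracts the same median of -0.33 from every log2 ratio. Its size is below the spread of 0.34, so centring could count no gene as moved. Centring on the median gene, quantile normalization and scaling to the hybridisation controls each gave 2 members at least 2-fold higher and 1 lower, in place of 1 and 2, because Npr2 (log2 ratios 1.28, 1.26 and 1.21) came past 2-fold and Nppc (-0.69, -0.66 and -0.85) fell short of it. Under quantile normalization Npr3 was at -1.18 and Prkg2 at 2.50. With the floor at the 75th percentile, 114, Nppc was not measured, Npr3 was at least 1.25-fold lower (-0.32) and Prkg2 at least 3.41-fold higher (1.77), since their dimmer signals lay below that floor, and 0 members were 2-fold lower. With log2(signal + 16) and no floor Nppc was at -0.74, leaving 1 lower member. The mean over measured probe sets gave Prkg2 2.52. Genes past 2-fold on the lower side numbered 0 to 5 in the cGMP breakdown list, the most with a floor at the 25th percentile, 0 to 3 in the cyclase, 0 to 2 in the kinase target and 0 to 1 in the ligand list. Kcnma1 fell short of 2-fold with log2(signal + 16) and was not measured with the highest floor. Counts over all measured genes ran from 181 to 672 higher and from 475 to 2534 lower. No paired analysis was possible because each group has 1 array.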
